A study of Homo sapiens with 12 samples.

Results

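The SRC-family kinases are tyrosine kinases on the inner face of the plasma membrane, and the VAV proteins are exchange factors that they phosphorylate. The genes described here are 10 of this group: the kinases LCK, SRC, YES1, LYN, FYN, FRK and PTK6, the inhibitory kinase CSK, and the exchange factors VAV2 and VAV3. They were taken by symbol, and all 10 were found among the 25540 genes listed for every library. The set was chosen with expression values of these libraries known, so the levels and differences of these 10 genes are given as a description, without p-values.

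RNA came from LS411N, a human colon cancer line, and from LS411N-BR, its derivative that resists BRAF inhibitors. Parental LS411N was grown without inhibitor, whereas the medium of LS411N-BR held 4 µM of a BRAF inhibitor that the labels do not name. All cells carried puromycin resistance and an inducible MUC1 shRNA, a short hairpin against the transmembrane mucin MUC1, which doxycycline (DOX) switches on. The 4 groups of 3 libraries were thus LS411N without DOX, LS411N with 500 ng/ml DOX, LS411N-BR without DOX and LS411N-BR with 500 ng/ml DOX, with 0.1% DMSO as the vehicle. The labels name no hairpin control, so effects of doxycycline and of MUC1 silencing cannot be told apart, and the resistance of LS411N-BR cannot be told apart from the presence of the inhibitor. Each line's triplicate cultures stand for 1 line, and nothing says they were grown on separate days, so standard errors measure the spread between these cultures only.

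In a resting cell, CSK phosphorylates the tail tyrosine of a SRC-family kinase and so keeps it closed. Receptors, integrins and, in lymphocytes, antigen receptors open the kinase, which then phosphorylates scaffolds at adhesion sites and exchange factors such as VAV, and these load RAC and related small GTPases with GTP. In colon epithelium and its tumours SRC and YES1 are the family members best known for raised activity, FRK and PTK6 are relatives typical of epithelia, and LCK is known foremost as the kinase of the T cell receptor.

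MUC1, the target of the hairpin, was lower with doxycycline in both lines. Its mean went from 5.09 ± 0.875 to 0.922 ± 0.0940 TPM (SD, n = 3) in LS411N and from 3.97 ± 0.293 to 0.509 ± 0.166 TPM in LS411N-BR, where TPM, a level corrected for gene length, give a gene's part of the transcripts of a library. The depth of the libraries is unknown, because TPM keep none. Libraries listed between 15116 and 17999 genes above 0. Between 47.1 and 58.0% of the TPM fell on genes with symbols of short RNA. LS411N without DOX replicate 3 stood apart in its group, with 47.1% against 57.9 and 58.0% and with the fewest genes above 0. In LS411N-BR the part was 54.2, 52.3 and 53.8% without DOX and 47.3, 51.3 and 50.4% with DOX, without overlap. Its part in the changes of other genes as deposited was not tested. All 8 markers of colon epithelium reached 1 TPM in every group, and they summed to between 2233 and 4400 TPM. Of the T and NK cell markers 9 were listed and none reached 1 TPM, their sums lay between 0.0269 and 0.287 TPM, NKG7 was at 0 in every library, and CD3G was at 0 in all but 1 library. PTPRC, the pan-leukocyte marker, was at most 0.0034 TPM, and 4 endothelial markers summed to at most 0.0406 TPM. The 6 fibroblast markers summed to 0.338 to 0.483 TPM in LS411N without DOX, 0.629 to 0.762 TPM with DOX, 1.52 to 1.85 TPM in LS411N-BR without DOX and 2.85 to 3.79 TPM with DOX, of which LUM alone passed 1 TPM, and their part in the results was not tested.

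The start regions of LCK, FRK and VAV3 are shown first. Each of these genes differed between treatments without overlap in both lines, as did PTK6, for which no window was given. How many of all genes do so was not counted, so nothing is read from it. LCK in LS411N-BR and VAV3 in LS411N were below 1 TPM in every library of the line. VAV3 was also, of the 10, the gene highest in LS411N-BR relative to LS411N. The regions are RefSeq sequences on build GRCh38.p14, the 250 bases before a transcript start, 5′ to 3′ on the gene's own strand. LCK has 2 annotated starts in that table, and FRK and VAV3 have 1 each.

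LCK upstream start, chr1:32251015-32251264, plus strand: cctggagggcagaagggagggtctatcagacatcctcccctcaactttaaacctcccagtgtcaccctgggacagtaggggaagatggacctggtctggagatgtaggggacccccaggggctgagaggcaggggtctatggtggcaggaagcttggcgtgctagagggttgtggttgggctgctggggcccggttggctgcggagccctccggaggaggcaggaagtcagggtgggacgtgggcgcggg

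LCK downstream start, chr1:32273871-32274120, plus strand: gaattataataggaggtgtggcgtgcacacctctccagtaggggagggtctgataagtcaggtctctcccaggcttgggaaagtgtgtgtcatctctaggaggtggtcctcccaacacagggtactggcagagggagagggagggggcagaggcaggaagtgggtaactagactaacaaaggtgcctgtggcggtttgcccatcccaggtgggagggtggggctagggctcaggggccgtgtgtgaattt

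FRK start, chr6:116060892-116061141, minus strand: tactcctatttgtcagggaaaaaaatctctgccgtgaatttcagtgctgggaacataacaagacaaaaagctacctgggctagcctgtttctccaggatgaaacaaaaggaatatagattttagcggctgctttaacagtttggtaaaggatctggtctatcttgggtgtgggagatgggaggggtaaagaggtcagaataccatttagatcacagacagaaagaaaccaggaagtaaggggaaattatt

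VAV3 internal start, chr1:107688500-107688749, minus strand: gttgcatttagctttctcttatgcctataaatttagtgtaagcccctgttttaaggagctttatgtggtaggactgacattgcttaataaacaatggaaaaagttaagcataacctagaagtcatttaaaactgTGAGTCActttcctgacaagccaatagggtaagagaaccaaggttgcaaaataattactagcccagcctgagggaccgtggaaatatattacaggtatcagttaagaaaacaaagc

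Capitals mark a match to any of 6 short words searched on both strands, none of which contains another: CTTTGAA (TCF/LEF), CAGTTG (MYB), TGANTCA (AP-1), CCGGAAG (ETS), CACGTG (E-box) and GGGCGG (GC box). Only the VAV3 region holds one, an AP-1 word that begins 116 bases before the start, and the AP-1 word occurs in 6.57% of all 35116 windows of this length. The LCK and FRK regions hold none of the 6, which says no more than that these letters are not in these windows. Shares of all windows are 3.80% for the TCF/LEF word, 9.0% for MYB, 8.52% for ETS, 6.34% for the E-box and 42.6% for the GC box. GC content is 64.4 and 57.6% in the upstream and downstream LCK regions, 41.6% in that of FRK and 37.2% in that of VAV3. Of the 14 LCK transcripts in GENCODE 29, 7 begin at or within 200 bases of the upstream window and 6 of the downstream one, and 4 of the 15 VAV3 transcripts begin at the VAV3 window. TPM are per gene and do not tell which start was used. Windows were given for 7 of the 10 genes. Of the others, the YES1 region holds 3 GC boxes and 1 ETS word and the VAV2 region 4 GC boxes and 1 E-box, while 2 of the 4 FYN regions hold 8 and 2 GC boxes.

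LCK, the SRC-family kinase of T cell receptor signalling, lies at chr1:32251239-32286165 (GRCh38, plus strand). As a ratio of highest to lowest library it had the widest range of the 10 genes, through values near 0. In TPM the range of YES1 was wider. LS411N without DOX had 4.89, 5.49 and 6.11 TPM, and LS411N with DOX 0.651, 0.656 and 0.600 TPM. LS411N-BR without DOX had 0.682, 0.537 and 0.530 TPM, and with DOX 0.0146, 0.00964 and 0.0250 TPM. The groups with and without DOX did not overlap in either line, and LCK was above 1 TPM only in LS411N without DOX. With DOX the mean fell by 88.4% in LS411N, a log2 fold change of -1.99 ± 0.12 (SE). In LS411N-BR the mean with DOX was 0.0282 of that without. All 6 libraries were below 1 TPM, so LCK was not fitted there, and with the depth unknown this ratio rests on values near 0. All log2 fold changes are of log2(TPM + 1), which shrinks changes of genes with few TPM. In these bulk libraries fewer cells with LCK RNA and less LCK RNA per cell cannot be told apart. The T cell markers given above were at or near 0 in the libraries where LCK was highest as well as in the others.

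FRK, a SRC-related kinase of epithelial cells at chr6:115931149-116060758 (minus strand), was higher with doxycycline in both lines. It had 20.9, 21.1 and 28.1 TPM in LS411N without DOX and 37.4, 37.7 and 35.5 TPM with DOX, and in LS411N-BR 29.1, 32.7 and 29.6 TPM without and 59.9, 52.5 and 58.1 TPM with DOX. Neither pair of groups overlapped. The means were 1.58 times higher in LS411N (log2 fold change 0.65 ± 0.14) and 1.86 times higher in LS411N-BR (0.88 ± 0.06). The difference between these effects, 0.23 ± 0.15, was not called. After median-of-ratios rescaling, which sets each library to the median ratio of its genes, the log2 fold changes were 0.58 and 0.67. Within each line FRK was thus higher in the group in which LCK was lower.

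PTK6, also called BRK, is an intracellular kinase of gut and other epithelia related to FRK, at chr20:63528001-63537370 (minus strand). It had 0.838, 0.867 and 0.753 TPM in LS411N without DOX and 1.90, 1.62 and 1.43 TPM with DOX. LS411N-BR had 1.25, 1.18 and 1.22 TPM without DOX and 2.08, 1.46 and 1.86 TPM with DOX. The groups did not overlap in either line, although the level stayed low in all 12 libraries. The means were 2.02 times higher in LS411N (log2 fold change 0.54 ± 0.12) and 1.48 times higher in LS411N-BR (0.33 ± 0.08, and 0.21 after median-of-ratios rescaling). In LS411N both PTK6 and LCK reached the 1 TPM that testing required only in their higher group, so that a fitted PTK6 or LCK was bound to differ there.

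**Figure D1:**
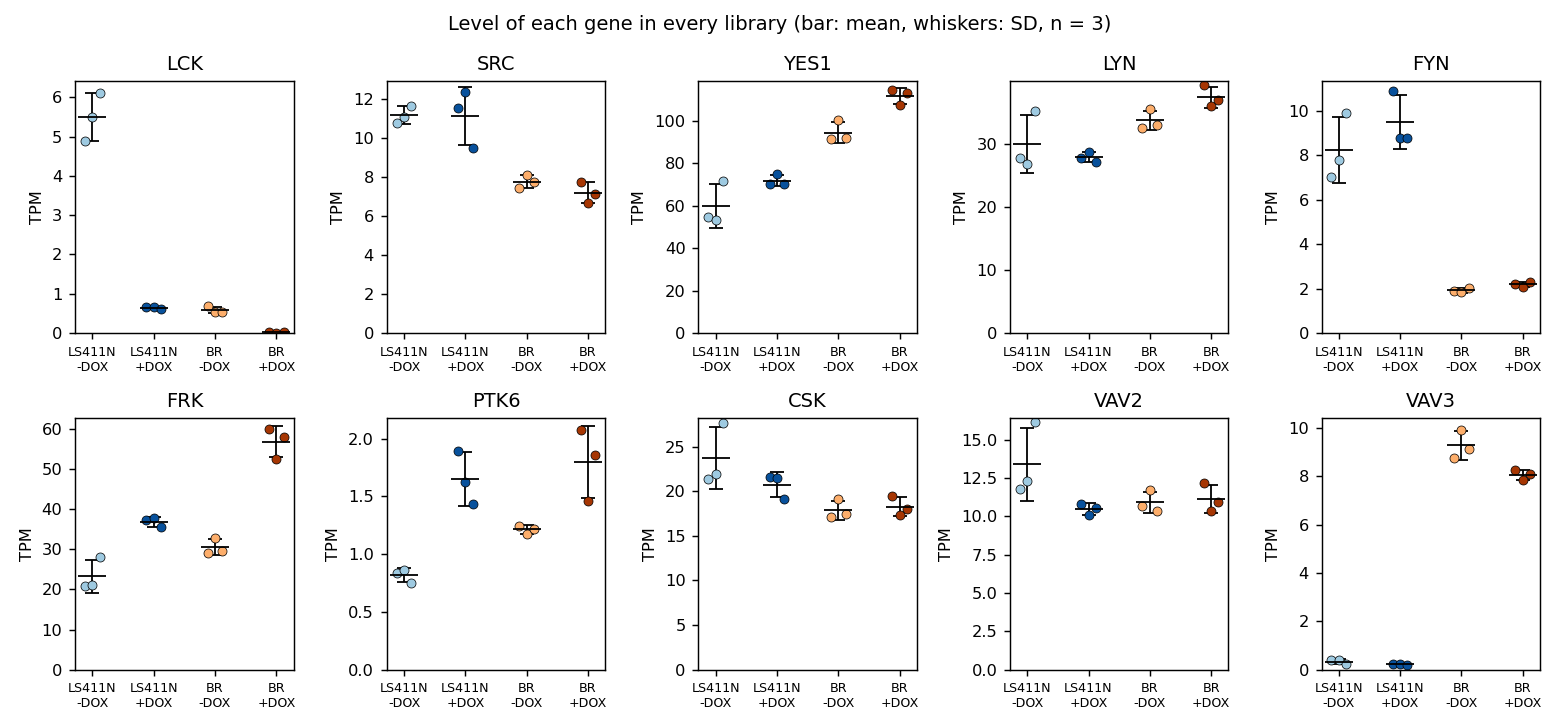
TPM (vertical axes, linear from 0, a scale of its own for each gene) of the 10 genes in every library of the 4 groups, with the group mean as a bar and the SD as whiskers (n = 3). LCK steps down from 4.89 to 6.11 TPM in LS411N without DOX to at most 0.0250 TPM in LS411N-BR with DOX, FRK is higher with DOX in both lines, and VAV3 is above 7 TPM only in the LS411N-BR libraries.

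YES1, with SRC and FYN among the broadly expressed members of the family, was the most abundant of the 10 in every group (chr18:721588-812546, minus strand). LS411N had 54.9, 53.1 and 71.7 TPM without DOX and 70.1, 74.7 and 70.2 TPM with DOX, and the groups overlapped through replicate 3 without DOX alone. Its log2 fold change in LS411N was 0.27 ± 0.15 and not called, and 0.40 without that library. LS411N-BR had 91.3, 100.1 and 91.7 TPM without DOX and 114.4, 107.5 and 113.3 TPM with DOX, with no overlap and a log2 fold change of 0.24 ± 0.06. The median over all genes fitted in LS411N-BR was 0.18 on that scale, so YES1 lay 0.06 above it, and after median-of-ratios rescaling its value was 0.03 and no longer called.

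LYN, a family member best known from B and myeloid cells and present in many epithelia, lies at chr8:55879813-56014168 (plus strand). Its libraries ranged from 26.9 to 35.2 TPM in LS411N without DOX, 27.1 to 28.7 TPM with DOX, 32.6 to 35.5 TPM in LS411N-BR without DOX and 36.0 to 39.3 TPM with DOX. The LS411N groups overlapped and those of LS411N-BR did not. The log2 fold change in LS411N-BR was 0.15 ± 0.06, called as deposited, but it was -0.06 and not called after median-of-ratios rescaling. B cell and myeloid markers summed to at most 0.137 and 0.163 TPM in any library.

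SRC, the founding member, at chr20:37344685-37406050 (plus strand), had the smallest fitted change in LS411N, -0.01 ± 0.14, and overlapping groups in both lines. It ranged from 9.50 to 12.4 TPM over the 6 LS411N libraries and from 6.68 to 8.11 TPM over the 6 LS411N-BR libraries. In LS411N-BR its log2 fold change was -0.10 ± 0.07 and not called as deposited, and -0.28 and called lower after median-of-ratios rescaling.

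FYN, the relative of LCK in T cells and a broadly expressed kinase elsewhere, lies at chr6:111660332-111873452 (minus strand) and differed far more between the lines than between the treatments. It had 7.04, 7.77 and 9.89 TPM in LS411N without DOX and 10.9, 8.79 and 8.78 TPM with DOX. LS411N-BR had 1.88, 1.84 and 2.04 TPM without DOX and 2.21, 2.09 and 2.30 TPM with DOX. Every LS411N library was above every LS411N-BR library, while the treatments overlapped in LS411N and did not overlap in LS411N-BR. With doxycycline the log2 fold changes were 0.19 ± 0.14 in LS411N and 0.13 ± 0.08 in LS411N-BR, neither called, and the value in LS411N-BR was -0.0099 after median-of-ratios rescaling.

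CSK, the kinase that closes the others, at chr15:74782057-74803198 (plus strand), ranged from 21.4 to 27.7 TPM in LS411N without DOX and from 19.1 to 21.6 TPM with DOX. LS411N-BR ranged from 17.1 to 19.1 TPM without and from 17.3 to 19.4 TPM with DOX, and the treatments overlapped in both lines. As deposited neither change was called (-0.18 ± 0.14 and 0.03 ± 0.07). After median-of-ratios rescaling CSK was called lower in both lines, at -0.25 and -0.17.

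VAV2, the broadly expressed VAV protein, at chr9:133761894-133992604 (minus strand), had 11.8, 12.3 and 16.1 TPM in LS411N without DOX and 10.8, 10.1 and 10.5 TPM with DOX, groups that did not overlap. Its log2 fold change there was -0.32 ± 0.14, not called as deposited and called lower at -0.38 after median-of-ratios rescaling. Without LS411N no DOX replicate 3, which holds the highest of these values, it was -0.18. In LS411N-BR the libraries ranged from 10.4 to 12.2 TPM over both treatments and overlapped. The value there was 0.03 ± 0.07 as deposited and -0.17, called lower, after median-of-ratios rescaling.

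VAV3, an exchange factor for RAC at chr1:107571160-107965144 (minus strand), was the gene whose level differed most upwards in the resistant line. It had 0.385, 0.392 and 0.244 TPM in LS411N without DOX and 0.225, 0.237 and 0.191 TPM with DOX. LS411N-BR had 8.78, 9.94 and 9.13 TPM without DOX and 8.25, 7.84 and 8.11 TPM with DOX. The lines lay far apart, and the treatments did not overlap in either line, in LS411N by little (0.244 against 0.237 TPM). The log2 fold change with DOX in LS411N-BR was -0.18 ± 0.07, called lower, and -0.37 after median-of-ratios rescaling. In LS411N no library reached 1 TPM and VAV3 was not fitted.

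**Figure D2:**
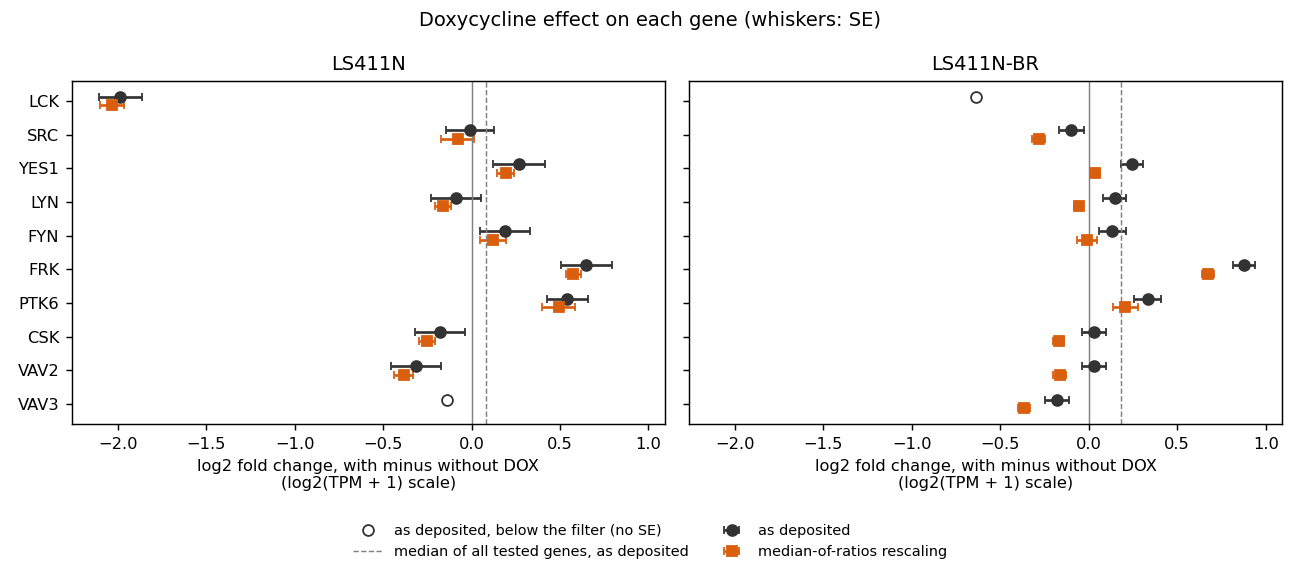
Log2 fold change with doxycycline of each gene on the log2(TPM + 1) scale (horizontal axis), in LS411N and LS411N-BR, as deposited (circles) and after median-of-ratios rescaling (squares), with SE as whiskers. Open circles were below the filter, the dashed line is the median of all genes tested as deposited (0.08 and 0.18), and LCK at -1.99 in LS411N and FRK at 0.65 and 0.88 lie farthest from it among the genes with an SE.

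Of the 10 genes, 9 were fitted in LS411N, and 2 were called higher (FRK and PTK6) and 1 lower (LCK) at an adjusted p under 0.05. Over all 11281 genes fitted 9.75% were called higher and 3.43% lower. After median-of-ratios rescaling 3 were called higher (YES1 in addition) and 4 lower (LCK, LYN, CSK and VAV2), beside 18.8 and 16.0% of all genes. Without LS411N no DOX replicate 3 as deposited the counts were 4 higher (YES1 and FYN in addition) and 2 lower (LCK and VAV2), beside 52.6 and 6.55%. The median log2 fold change of the 9 was -0.01, and that of all genes 0.08.

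In LS411N-BR 9 were fitted, and 4 were called higher (YES1, LYN, FRK and PTK6) and 1 lower (VAV3), where 56.1% of all 11322 genes were called higher and 11.1% lower. Median-of-ratios rescaling left 2 higher (FRK and PTK6) and 4 lower (SRC, CSK, VAV2 and VAV3), beside 32.3 and 32.2% of all genes, and thereby turned the direction of LYN, FYN, CSK and VAV2. The median of the 9 was 0.13 as deposited against 0.18 over all genes. The set was chosen with these values known, so nothing is read from the counts.

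The effect in LS411N-BR minus that in LS411N, from 1 fit over the 12 libraries, was called for LCK alone of the 10, at 1.35 ± 0.12 as deposited, beside 1.39% of 11674 genes called higher and 0.728% called lower. This sign means a smaller drop in LS411N-BR on the log2(TPM + 1) scale, where LCK started from 0.583 TPM rather than 5.50 TPM. LCK entered this fit only through the LS411N libraries without DOX, as all others were below 1 TPM. On this scale LS411N-BR thus had little room to drop, and nothing is read from the call. On the ratio scale the order is the other way, since LCK with DOX was 0.116 of its level without DOX in LS411N and 0.0282 in LS411N-BR, and with 0.1 TPM added in place of 1 TPM the difference was 0.38 ± 0.26 and not called. After median-of-ratios rescaling VAV2 was called too (0.22 ± 0.06), with 4.39% of genes higher and 6.43% lower. The other differences ranged from -0.21 ± 0.13 (PTK6) to 0.34 ± 0.15 (VAV2) as deposited.

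The order of the levels, which TPM allow between genes because they are per length, was led by YES1 in all 4 groups. In LS411N without DOX LYN, CSK and FRK followed at means of 29.9, 23.7 and 23.3 TPM, and neighbours in that run overlapped. Next were VAV2, SRC, FYN and LCK at 13.4, 11.1, 8.23 and 5.50 TPM, each clear of the next, and then PTK6 and VAV3. With DOX FRK stood next after YES1 at 36.8 TPM, clear of LYN at 27.9 TPM, SRC, VAV2 and FYN overlapped in turn between 11.1 and 9.49 TPM, and LCK was below PTK6. In LS411N-BR without DOX LYN and FRK overlapped at 33.7 and 30.5 TPM, VAV3 stood between VAV2 and SRC, and LCK last. FRK was again next after YES1 with DOX in LS411N-BR, at 56.9 TPM, and no neighbours overlapped in that group.

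The summed TPM of the 7 kinases other than CSK shows what the family's RNA was made of. The sum was 139 ± 21.2, 159 ± 5.81, 170 ± 8.69 and 217 ± 9.93 TPM (SD, n = 3) in LS411N without and with DOX and in LS411N-BR without and with DOX. These sums are as deposited, from tables scaled over different genes. Rescaled over the shared genes those of LS411N were 177 ± 23.1 and 203 ± 5.03 TPM, so that without DOX the lines overlapped and the order of their means was the reverse. YES1 made up 43.1 ± 0.917, 45.0 ± 1.11, 55.5 ± 0.181 and 51.5 ± 0.731% of it in the same order. FRK went from 16.8 ± 0.385 to 23.1 ± 0.202% with DOX in LS411N and from 17.9 ± 0.231 to 26.2 ± 0.609% in LS411N-BR. In both lines FRK thus took up a larger part of the sum with DOX, in every library.

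LYN was the other large part, at 21.6 and 17.5% in LS411N without and with DOX and 19.8 and 17.2% in LS411N-BR, lower with DOX in every library. SRC made up 8.12, 6.97, 4.56 and 3.31% in the 4 groups and FYN 5.92, 5.96, 1.13 and 1.01%. LCK was 3.98 ± 0.324% of the sum in LS411N without DOX and 0.399, 0.344 and 0.0075% in the other groups. The fraction of PTK6 stayed between 0.461 and 1.18% in all libraries. A share does not depend on how a library is scaled, but a larger share of one kinase lowers those of the others. CSK stood to the sum as 0.171, 0.130, 0.105 and 0.0840 in the 4 groups, a ratio computed after the levels had been seen. Of VAV2 and VAV3 together VAV3 made up 2.58 and 2.04% in LS411N without and with DOX, and 46.0 and 42.0% in LS411N-BR.

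**Figure D3:**
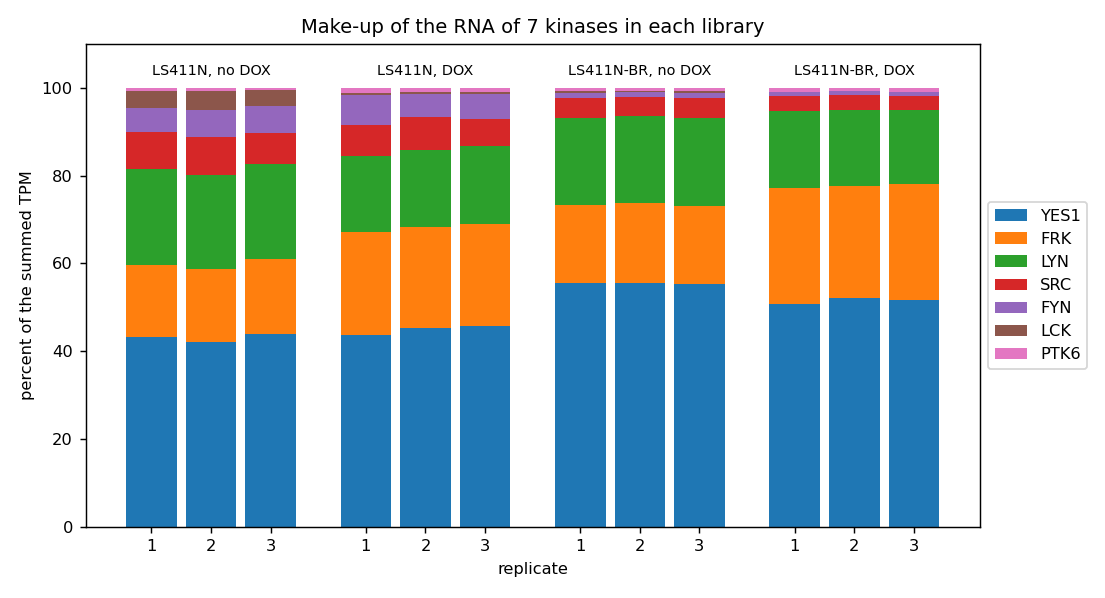
Share of each of 7 kinases in their summed TPM (vertical axis, percent) in each of the 12 libraries, grouped by line and doxycycline. YES1 is the largest part everywhere (42.1 to 55.6%), FRK is larger with DOX in both lines, and FYN and LCK are thin bands in LS411N-BR.

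Levels between the lines come from tables scaled over different genes, so the LS411N values were rescaled over the shared genes and the levels are set side by side without a test. Without DOX, LCK was 12 times lower in LS411N-BR, FYN 5.47 times, SRC 1.84 times, CSK 1.69 times and VAV2 1.56 times lower, all without overlap. With DOX these became 49.3, 5.50, 1.97, 1.45 and 1.20 times, again without overlap. As deposited CSK and VAV2 overlapped with DOX, and the VAV2 means stood the other way, at 10.5 TPM in LS411N and 11.1 TPM in LS411N-BR. Rescaling raised the LS411N values, that of VAV2 without DOX from a mean of 13.4 to 17.1 TPM, so the ratios near 1 depend on it. VAV3 was 21.3 times higher in LS411N-BR without DOX and 29.1 times higher with DOX. YES1 was 1.24 and 1.22 times higher. The LYN libraries of the lines overlapped under both treatments, those of FRK without DOX (1.02 times) and those of PTK6 with DOX (0.856 times), though as deposited LYN with DOX and FRK without DOX did not overlap. The means of LYN without DOX and of PTK6 with DOX were higher in LS411N after rescaling and higher in LS411N-BR as deposited. FRK was 1.21 times higher with DOX and PTK6 1.16 times higher without DOX, without overlap. Of the 10 genes, LCK and FYN, the kinases of T cell receptor signalling, thus had the lowest levels in LS411N-BR relative to the parental line.

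The other genes of the pathway were taken from 6 lists of 71 genes. In LS411N 50 of them were tested, with 4 higher and 2 lower (8 and 4%, beside 9.75 and 3.43% of all genes), and in LS411N-BR 49, with 30 higher and 6 lower (61.2 and 12.2%, beside 56.1 and 11.1%). After median-of-ratios rescaling the counts were 13 and 9 in LS411N (26 and 18%, beside 18.8 and 16.0% of all genes) and 19 and 13 in LS411N-BR (38.8 and 26.5%, beside 32.3 and 32.2%). Their median log2 fold change was 0.11 in LS411N and 0.22 in LS411N-BR, against 0.08 and 0.18 over all genes. Of the further SRC-, CSK- and VAV-family genes only the SRC-like kinase SRMS was tested, with 1.31 ± 0.0869 and 1.09 ± 0.0488 TPM in LS411N and 2.01 ± 0.349 and 1.90 ± 0.112 TPM in LS411N-BR without and with DOX, and it was not called in either line as deposited. After median-of-ratios rescaling SRMS was called lower in LS411N-BR, at -0.18 (adjusted p = 0.045).

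Regulators of the family were tested for 11 of 12 genes, with 1 higher and 0 lower in LS411N (limma, 3 and 0 at an unadjusted p under 0.05) and 6 higher and 1 lower in LS411N-BR. The latter were 54.5 and 9.09% of the list, near the 56.1 and 11.1% of all genes. Their medians were 0.07 and 0.19. PAG1, the membrane anchor that recruits CSK, rose in both lines. It went from 1.11 ± 0.147 to 2.41 ± 0.142 TPM in LS411N (log2 fold change 0.70 ± 0.12, adjusted p = 2.1e-05) and from 5.04 ± 0.371 to 9.40 ± 0.554 TPM in LS411N-BR (0.79 ± 0.07, adjusted p = 4.5e-28). PTPN1, a phosphatase that can open SRC, rose in LS411N-BR by 0.53 ± 0.07 (adjusted p = 7.6e-15), from 16.7 to 24.5 TPM, or by 0.33 after median-of-ratios rescaling. CBL, a ubiquitin ligase for active tyrosine kinases, rose there by 0.44 ± 0.07 (adjusted p = 3.2e-10), or 0.25 after that rescaling. Its relative CBLB, named after the values were seen, fell by 0.34 (adjusted p = 1.0e-05), and its rescaled value was -0.50.

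Substrates and adhesion scaffolds were tested for 14 of 16 genes, with 3 higher and 2 lower in LS411N and 8 higher and 2 lower in LS411N-BR, and medians of 0.14 and 0.22. The shares in LS411N-BR, 57.1 and 14.3%, were near those of all genes (56.1 and 11.1%). CAV1, the caveolar coat protein first found as a SRC substrate, rose in LS411N from 1.81 ± 0.215 to 5.96 ± 0.413 TPM (1.31 ± 0.13, adjusted p = 4.3e-11). In LS411N-BR it had 6.33 ± 0.364 and 7.64 ± 0.491 TPM, a rise of 0.24 (adjusted p = 0.0013) as deposited that was 0.05 and not called after median-of-ratios rescaling. NEDD9, a docking protein of focal adhesions, fell by 0.44 in each line (adjusted p = 0.0084 in LS411N, where the DOX libraries had 0.991 to 1.01 TPM). In LS411N-BR NEDD9 had 1.29 to 1.74 TPM without DOX and 0.743 to 0.899 TPM with DOX. It thus reached the 1 TPM that testing required only in its higher group there, and no p is given. CTNND1, a catenin that binds cadherins, rose in LS411N from 1.87 to 2.90 TPM (adjusted p = 0.0091) and was below the filter in LS411N-BR. PTK2B, the relative of focal adhesion kinase, rose in LS411N-BR by 0.59 ± 0.07 (adjusted p = 6.3e-16) and in LS411N by 0.45 ± 0.13 (adjusted p = 0.014). After median-of-ratios rescaling these rises were 0.41 and 0.39. CDCP1, a transmembrane SRC substrate, and CTTN, an actin-binding one, rose in LS411N-BR by 0.53 (adjusted p = 1.6e-15) and 0.50 (adjusted p = 9.0e-14), or by 0.33 and 0.29 after median-of-ratios rescaling. Named after their values were seen, TNS3 fell by 0.42 in LS411N (adjusted p = 0.034) and SH3PXD2A by 0.22 in LS411N-BR (adjusted p = 0.0046), where its rescaled value was -0.39.

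Small GTPases and effectors downstream of VAV had 0 calls by limma among 13 tested genes in LS411N, where 3 were higher and 1 lower at an unadjusted p under 0.05, and 11 higher and 1 lower among 14 in LS411N-BR (78.6 and 7.14%, beside 56.1 and 11.1% of all genes). Their medians were 0.12 and 0.26. After median-of-ratios rescaling the counts were 3 higher and 2 lower in LS411N and 6 and 3 in LS411N-BR (42.9 and 21.4%, beside 32.3 and 32.2% of all genes). PAK1, a kinase activated by RAC, rose in LS411N-BR from 28.4 ± 0.778 to 40.5 ± 1.17 TPM (0.50 ± 0.06, adjusted p = 8.1e-14). CYFIP1, a subunit of the WAVE complex that RAC opens, rose by 0.46 ± 0.07 (adjusted p = 9.3e-11). After median-of-ratios rescaling these were 0.29 for PAK1 and 0.27 for CYFIP1. ARHGDIB, a dissociation inhibitor that holds small GTPases in the cytosol, fell from 4.41 ± 0.197 to 1.46 ± 0.0343 TPM (-1.14 ± 0.07, adjusted p = 2.2e-50), and in LS411N it had 0.982 ± 0.141 and 0.765 ± 0.177 TPM, below the filter.

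Other RAC exchange factors had 0 calls by limma of 7 tested in LS411N, where 1 was higher at an unadjusted p under 0.05, and 4 higher and 1 lower of 6 in LS411N-BR (66.7 and 16.7%, beside 56.1 and 11.1% of all genes). After median-of-ratios rescaling the counts were 2 higher and 2 lower in LS411N and 3 and 1 in LS411N-BR. SOS1, which also loads RAS, rose in LS411N-BR by 0.34 ± 0.07 (adjusted p = 8.3e-07), or by 0.14 after median-of-ratios rescaling. DOCK1, the exchange factor that acts with ELMO, fell from 19.4 ± 1.04 to 15.5 ± 0.797 TPM (-0.31 ± 0.07, adjusted p = 1.1e-05, and -0.50 after rescaling).

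Of the 11 antigen receptor partners of LCK, 4 were tested in LS411N with 0 calls by limma and 1 lower at an unadjusted p under 0.05, or 1 lower call after median-of-ratios rescaling, and 3 were tested in LS411N-BR. SYK, a kinase that epithelia express too, rose in LS411N-BR from 13.7 ± 1.11 to 15.8 ± 0.536 TPM (0.20 ± 0.07, adjusted p = 0.0060) as deposited, but was at -0.00038 (adjusted p = 0.99) after median-of-ratios rescaling. PLCG1, the phospholipase of receptor signalling, fell by 0.16 ± 0.07 (adjusted p = 0.035), and its value after that rescaling was -0.34 (adjusted p = 6.4e-05). VAV1, the VAV protein of blood cells, reached a group mean of 0.0114 TPM, and FGR, BLK and MATK reached 0.0043, 0.0035 and 0.0082 TPM. ZAP70 and LCP2, which carry the signal of LCK in T cells, reached group means of 0.0077 and 0.0031 TPM.

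**Figure D4:**
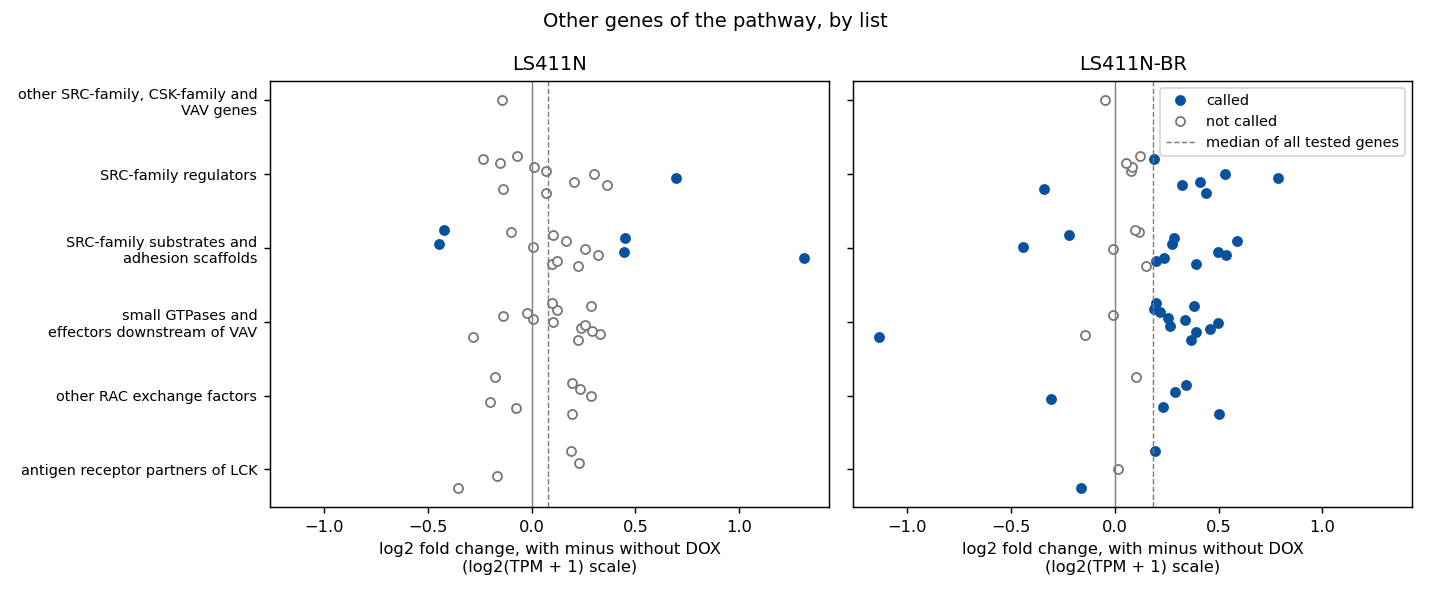
Log2 fold change with doxycycline (horizontal axis, log2(TPM + 1) scale, as deposited) of each tested gene of the 6 pathway lists, filled where called at an adjusted p under 0.05. In LS411N 6 of 50 genes are filled, and in LS411N-BR 36 of 49, with ARHGDIB at -1.14 farthest left. Of all genes, 9.75% were called higher and 3.43% lower in LS411N, and 56.1 and 11.1% in LS411N-BR. The dashed line is the median of all genes tested (0.08 and 0.18).

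Genes whose pattern was most like that of LCK over the 12 libraries were sought by Pearson's r of log2(TPM + 1), after scaling both lines over the shared genes, among 9114 genes with a group mean of at least 5 TPM. They were CXCR4, a chemokine receptor (r = 0.98), ACP6, a phosphatase (r = 0.98), and SOX8, a transcription factor (r = 0.98). CXCR4 had 9.92 ± 0.577 and 1.57 ± 0.154 TPM in LS411N and 0.589 ± 0.103 and 0.285 ± 0.0574 TPM in LS411N-BR without and with DOX, so its means fell in the same order as those of LCK. In the same groups ACP6 had means of 7.49, 5.64, 7.11 and 6.21 TPM and SOX8 8.11, 4.68, 5.36 and 4.23 TPM as deposited. These do not fall in the order of LCK. For PTK6, the other gene changed at least 2-fold, they were NPM3, a nuclear chaperone (r = 0.96), FSTL3, a secreted follistatin relative (r = 0.96), and ACER2, a ceramidase (r = 0.95). ACER2 had 3.05 ± 0.249 and 11.2 ± 0.784 TPM in LS411N and 4.62 ± 0.490 and 10.2 ± 0.908 TPM in LS411N-BR. The 12 points share 2 lines and 2 treatments, so any gene with a like pattern over the 4 groups scores high, and no p is given.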

How the data were processed

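Bulk RNA-seq values were used for 12 libraries. Total RNA was made into libraries with TruSeq Stranded mRNA, per the labels' protocols, and the submitters' processing notes list STAR, DESeq2 and build GRCh38 without roles. The authors deposited TPM per gene in 1 table per line, of 25673 and 25540 genes, each library summing to 1000000 TPM. Not given in the sources used here are the TPM program, its annotation and the treatment of reads in overlapping genes. Depth is unknown, so no counting interval is given. The tables were normalized separately, so no test crosses them other than the difference of effects.

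Values were tested as log2(TPM + 1) by an intensity-trend fit in limma 3.58.1 (R 4.3.3), two-sided, where 3 or more libraries held 1 TPM or more, with Benjamini-Hochberg adjustment over all genes tested and a threshold of 0.05. Each line was fitted alone, and the difference between lines was the interaction over 12 libraries. For LS411N-BR limma shrank each gene's variance fully to the trend (infinite prior degrees of freedom). Median-of-ratios rescaling was the main alternative, though its value is not given for every gene. The fits were also run on simulated data with the same spread for all genes and no shift of a whole library. Such a run cannot show how they hold for these libraries, so nothing is read from it. Replicate numbers did not pair libraries: deviations of same-numbered libraries correlated at r = 0.029, 0.0062 and 0.17 in LS411N and 0.023, 0.0031 and 0.0084 in LS411N-BR. Gene positions came from GENCODE 29 on GRCh38 and promoter sequences from RefSeq on GRCh38.p14.

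The 10 genes, the 6 lists of 71 pathway genes and the markers were chosen with earlier results of these data known. Genes named were the 10, MUC1, up to 3 called genes with the smallest adjusted p per list and line, and the 3 genes most like LCK and any other of the 10 changed at least 2-fold. Some genes that meet this rule are left out.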

Additional observations from a re-analysis of the deposited data

Results flagged for a closer look

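The doxycycline effect on LCK differed between the lines by 1.35 ± 0.12 (LS411N-BR minus LS411N, log2(TPM + 1), limma interaction over 12 libraries). The gene was among those chosen with these values known, so the difference is a description. It entered the fit only through the LS411N libraries without DOX, as all others were below 1 TPM. The means of LCK were 5.50 and 0.636 TPM without and with DOX in LS411N, and 0.583 and 0.0164 TPM in LS411N-BR. The value follows the scale: with 0.1 TPM added in place of 1 TPM it was 0.38 ± 0.26 and not called, and the ratio of the means was lower in LS411N-BR (0.0282) than in LS411N (0.116).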

How the results depend on the processing

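Counts of the 10 genes called in LS411N (2 higher, 1 lower) became 1 and 0 with a filter of 5 TPM, 3 and 4 with median-of-ratios rescaling, 3 and 3 when rescaled over shared genes without short RNA, and 2 lower with the spread of all 12 libraries. Leaving out 1 library gave 2 to 4 higher and 1 to 2 lower, the 4 and the 2 without LS411N no DOX replicate 3. Pathway genes in LS411N (4 higher, 2 lower) became 2 and 0 with no filter, 2 and 1 at 5 TPM, 13 and 9 with median-of-ratios rescaling, 18 and 7 without short RNA, 11 and 4 with the spread of all 12 libraries, and 2 to 29 higher and 0 to 4 lower when a library was left out, 29 and 4 of these without LS411N no DOX replicate 3, 2 higher without DOX replicate 1 and 0 lower without DOX replicate 3. Counts of the 10 in LS411N-BR (4 higher, 1 lower) became 2 and 4 with median-of-ratios rescaling, 2 and 0 with the spread of all 12 libraries, 2 lower with no filter and 3 lower without short RNA, with 0 to 1 lower on leaving out a library, 0 without no DOX replicate 2. The pathway counts there (30 higher, 6 lower) became 19 and 13 with median-of-ratios rescaling, and 2 lower at 5 TPM. With a replicate block, 1 pathway gene was lower in LS411N and 0 of the 10 in LS411N-BR, and no other count moved by over 1.5 times. The difference between lines (1 of the 10 higher) became 0 with 0.1 TPM added, 0 at 5 TPM, where LCK was not tested, and 2 with median-of-ratios rescaling or without short RNA.

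Signs turned in LS411N-BR with median-of-ratios rescaling for LYN (-0.058), FYN (-0.0099), CSK (-0.17) and VAV2 (-0.17), and without short RNA for CSK (-0.079) and VAV2 (-0.079). Leaving out a library gave -0.014 to 0.075 for CSK and -0.032 to 0.073 for VAV2 there, and in LS411N -0.082 to 0.092 for SRC and -0.16 to 0.029 for LYN. For the difference it gave -0.16 to 0.053 for YES1, -0.18 to 0.036 for FYN and -0.079 to 0.0092 for VAV3, which was 0.26 with 0.1 TPM added. In LS411N-BR the call of LYN was also lost without short RNA (0.038), with no filter, no trend, the replicate block, the 12-library spread or 4 of the 6 libraries left out in turn, that of YES1 with the 12-library spread, and that of VAV3 with the block, that spread or without no DOX replicate 2. The cause was not tested. With the depth unknown, LCK in LS411N-BR and VAV3 in LS411N, below 1 TPM in all 6 libraries of the line, have the least support.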
